A study of Mus musculus with 6 samples.

Results

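The genes described here are 9 genes of the monocyte lineage in mouse blood progenitors: Fn1, F13a1, Ccr2, Ly6c2, Ms4a6c, Ly86, Cd68, Lyz2 and Zeb2. They were found by symbol, and all 9 are among the 16403 genes of the deposited table and among the 12564 genes with enough counts to be tested. The 9 were chosen by their difference in level between the study's groups, already known from these libraries, so that difference is given for them as a description. The calls that a fit over all genes made for them are only counted, and nothing is supported with them. The study compared marrow LSK cells between C57BL/6 mice on day 7 of periodontitis brought about by a tooth ligature (LIP) and C57BL/6 controls that had no ligature and no treatment (NL), with the age of the mice not given in the sources used here. The LSK gate keeps marrow cells that lack lineage markers and carry Sca-1 and Kit, a fraction with hematopoietic stem cells and multipotent progenitors, and cells were sorted by flow cytometry. Each group had 3 polyA-selected libraries, each from the pooled LSK cells of 3 mice, so the spread between libraries is that between pools. Library totals lay between 17780853 and 18841103 estimated counts, and single values of the 9 genes between 392 and 8706.59.

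Monocytes arise in the marrow from granulocyte-monocyte progenitors and from progenitors shared with dendritic cells, under the transcription factors PU.1 and IRF8 and the growth factor receptor CSF1R. Classical monocytes carry LY6C on their surface and need the chemokine receptor CCR2 to leave the marrow, and they mature into phagocytes rich in lysosomal proteins. Multipotent progenitors already hold low levels of such lineage mRNAs, which is called lineage priming.

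All 9 genes were higher in LIP on average, with log2 fold changes (LIP over NL) from 0.08 to 0.85 and a median of 0.24, against a median of -0.00 over all tested genes. Fn1 stood out with a 1.81-fold difference, F13a1 followed with 1.40-fold and Ccr2 with 1.31-fold, and the other 6 lay between 1.06-fold and 1.20-fold. In 8 of the 9 every LIP library lay above every NL library in CPM (counts relative to library size, scaled by TMM). Over all tested genes 19.9% had this order and 21.0% the opposite one, with every LIP library below every NL library. The edgeR fit called the same 8 higher at an adjusted p below 0.05 and left Ly86 uncalled. Of all tested genes 14.1% were called higher, 15.8% lower and 29.9% in either direction. In bulk RNA, more cells of a type and more RNA per cell cannot be told apart.

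**Figure D1:**
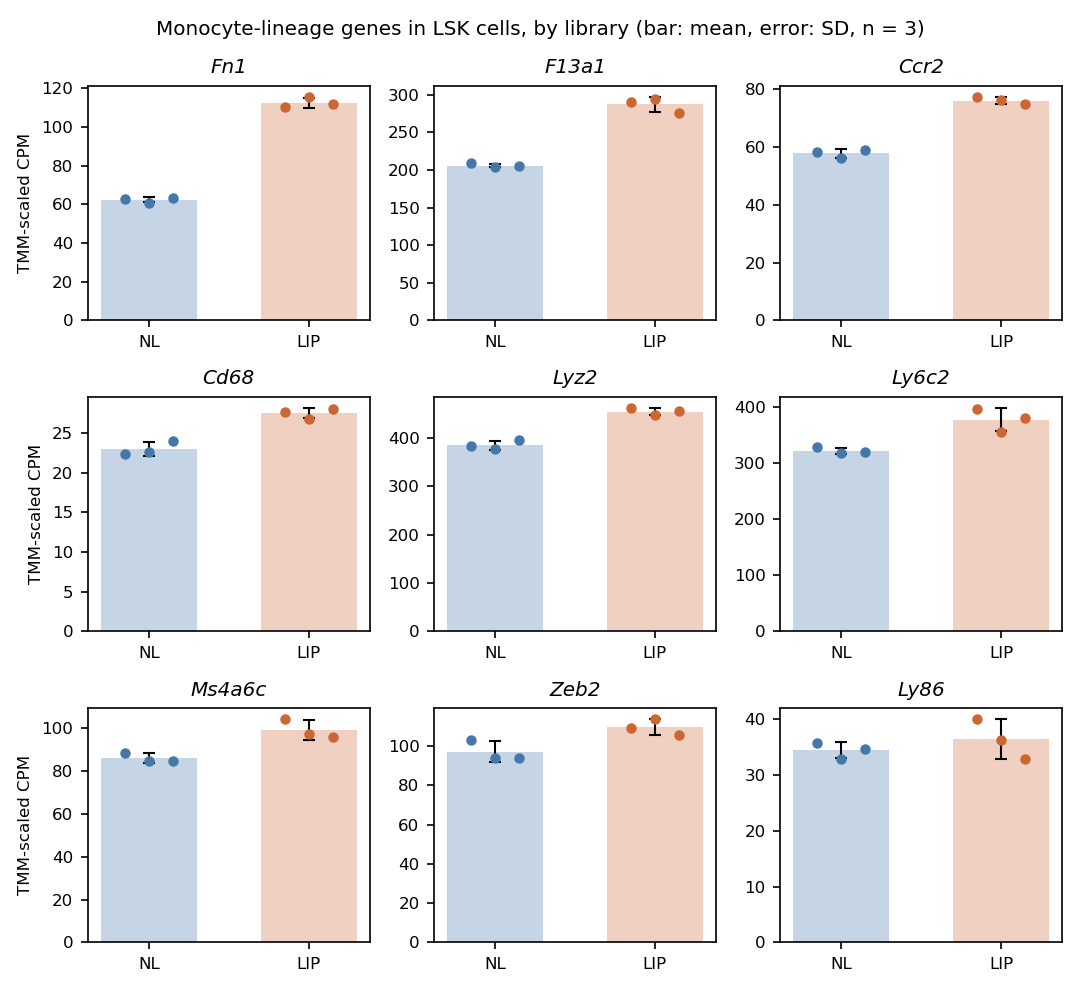
TMM-scaled CPM of the 9 genes (y axes, from 0) in the 3 NL and 3 LIP libraries; points are libraries, bars group means and error bars SD. The groups are apart in 8 panels, widest in Fn1 (62.2 against 112.4 CPM on average), and overlap in Ly86.

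Fn1 and F13a1 encode proteins that monocytes and macrophages make for the provisional matrix. Fn1 (chromosome 1, 71585473 to 71653280, GRCm38) encodes fibronectin, a large matrix glycoprotein bound by integrins. It stood at 62.7, 60.7 and 63.2 CPM in NL libraries 1 to 3 and at 110.4, 115.3 and 111.6 CPM in LIP libraries 1 to 3. Libraries within a group were close, with coefficients of variation of 2.14% and 2.25%, and the lowest LIP library was 1.75-fold above the highest NL library. The log2 fold change was 0.85 ± 0.04 (SE, n = 3 per group), which placed Fn1 at rank 61 of the 12564 tested genes in order of log2 fold change. In estimated counts these were between 1070 and 1111 in NL and between 1997 and 2205 in LIP. Over 17 alternative fits the estimate lay between 0.80 and 0.97.

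F13a1 (chromosome 13, 36867178 to 37050244) encodes the catalytic A subunit of coagulation factor XIII, a transglutaminase that crosslinks fibrin and fibronectin. Its NL libraries held 208.8, 204.0 and 204.9 CPM and its LIP libraries 290.5, 294.8 and 276.3 CPM. The 3 NL libraries were nearly alike, with a coefficient of variation of 1.24%, and LIP-3 was the lowest LIP library, still 1.32-fold above the highest NL library. This gave a log2 fold change of 0.48 ± 0.03, rank 320 of the tested genes, and between 0.46 and 0.61 over the alternative fits. Counts were high, from 3594 in NL-2 to 5639 in LIP-2, and whole in every library for both F13a1 and Fn1. No window of 100 bases in the coding sequence of either gene occurs in a transcript of another gene in GENCODE M21.

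Among integrins, syndecans and other matrix partners of fibronectin, 4 of 13 tested genes rose and none fell, with a median log2 fold change of 0.10, and 6 rose with total counts alone. Thbs1, which encodes the matricellular protein thrombospondin 1, rose by 1.15 from a low level (1.12 ± 0.27 to 2.48 ± 0.07 CPM, SD), the platelet and progenitor integrin gene Itgb3 by 0.39 and Itgb7 by 0.15. The fourth was Itga4, the integrin subunit that binds fibronectin on progenitors, at 0.10, and its call was lost with the length offset (adjusted p = 0.316) and without NL-2 (0.0968). Of 10 tested genes of coagulation, transglutaminases and fibrinolysis 5 rose and none fell, with a median of 0.17. The factor V gene F5 rose by 0.69, the factor X gene F10 by 0.45 and Serpine2, a thrombin inhibitor gene, by 0.44. Plaur and Thbd rose by 0.26 and 0.25, with calls lost in 5 and 3 of 17 alternatives, with DESeq2 (adjusted p = 0.143 and 0.11), without LIP-1 (0.115 and 0.0516) and without NL-1 (0.0614 and 0.123). Plaur also lost its call without LIP-3 (0.0733) and without NL-3 (0.116). F13b, which encodes the carrier subunit of factor XIII, had at most 2 counts in any library and was not tested.

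**Figure D2:**
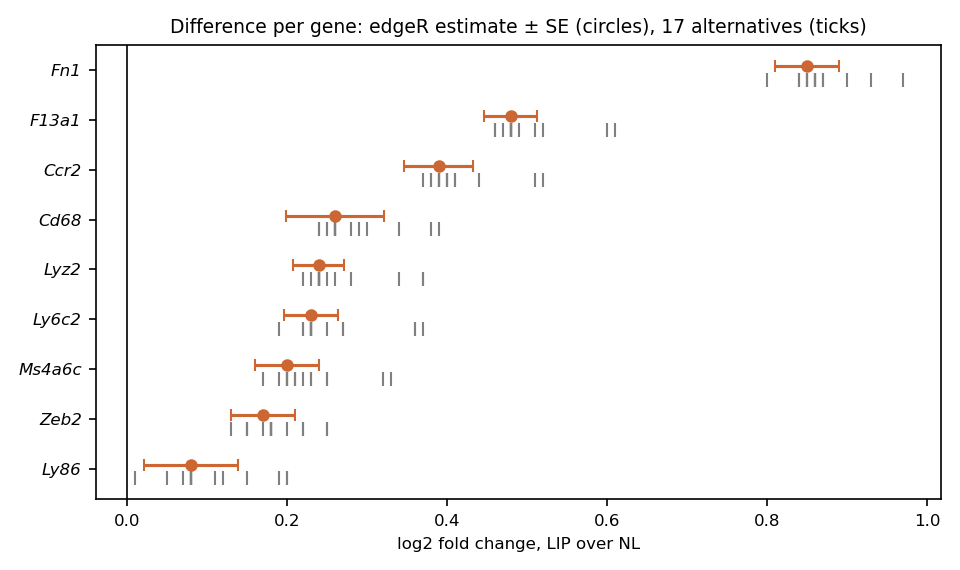
Log2 fold change of each gene, LIP over NL (x axis): circles with bars are the edgeR estimate ± SE, grey ticks the 17 alternative fits. Fn1 stays between 0.80 and 0.97, whereas ticks for Ly86 run from 0.01 to 0.20.

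Of the surface proteins, Ccr2 (chromosome 9, 124101918 to 124109140) encodes the receptor by which classical monocytes follow CCL2 and related chemokines out of the marrow. Its values were 58.4, 56.1 and 59.1 CPM in NL and 77.1, 76.2 and 74.7 CPM in LIP. Both groups were tight, with coefficients of variation of 2.76% and 1.60%, and did not overlap. The estimate was 0.39 ± 0.04 on the log2 scale, between 0.37 and 0.52 over the alternative fits. Its counts ran from 987.95 in NL-2 to 1457.78 in LIP-2 and were not all whole. Its ligand genes Ccl2, Ccl8 and Ccl12 had at most 4 counts in any library. Among the 9 tested genes of the list of CCR2 ligands and other chemokine receptors 3 rose and 2 fell, with a median of -0.03. Cx3cr1, the fractalkine receptor gene of monocytes and their progenitors, rose by 0.40 ± 0.08, and the inflammatory receptor gene Ccr1 rose by 0.40 from a low level (5.46 CPM in NL). The call of Ccr1 was lost with DESeq2 (adjusted p = 0.0694) and without NL-1 (0.0509). Cxcr4, whose receptor retains cells in the marrow, fell by 0.14, and Ccr9 fell by 0.29. Both falls lost their call on the log2 TPM scale, where the median of all genes was itself shifted upward.

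Ly6c2 (chromosome 15, 75108161 to 75112066) encodes a glycolipid-anchored surface protein that, with its near-identical copy Ly6c1, carries the LY6C antigen of classical monocytes. The copies differ at 9 of 393 coding bases (97.7% identity), and 6 of these lie in the stretch from coding base 6 to coding base 65. That stretch is shown because it holds most of the coding bases by which the copies differ. The untranslated parts of the 2 transcripts were not aligned. The sequences are from GENCODE M21 on GRCm38, 5′ to 3′, and capitals mark the bases that differ.
Ly6c2: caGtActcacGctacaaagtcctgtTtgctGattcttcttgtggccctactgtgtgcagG
Ly6c1: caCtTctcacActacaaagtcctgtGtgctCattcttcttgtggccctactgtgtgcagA

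Of the 294 windows of 100 bases (the read length) in the Ly6c2 coding sequence, 89 (30.3%) also occur in a Ly6c1 transcript. The deposited counts of Ly6c2 were not whole numbers, and Ly6c2 held between 92.7% and 93.6% of the joint counts of both copies in every library. Its NL values were 327.8, 317.5 and 319.4 CPM and its LIP values 395.9, 355.5 and 379.7 CPM. LIP-2 was the lowest LIP library and LIP-1 the highest, and the spread in LIP (SD 20.3) was wider than in NL (SD 5.47). The log2 fold change was 0.23 ± 0.03 and became 0.37 with an offset for transcript length. Summed over both copies the level was 344.9 ± 6.82 CPM in NL and 404.9 ± 23.0 CPM in LIP (SD, n = 3 each), 1.17-fold apart, the same as for Ly6c2 alone. Ly6c1 rose by 0.25, but its call was lost without LIP-1 (adjusted p = 0.066).

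In the rest of the LY6 family 2 of 6 tested genes rose and none fell, with a median of 0.17. Besides Ly6c1 this was the broadly expressed Ly6e, at 0.10, whose call was lost without LIP-1, LIP-3, NL-2 or NL-3 (adjusted p = 0.0805, 0.187, 0.062 and 0.154). Ly6a, which encodes the Sca-1 used in the sort, stood at -0.07 with an adjusted p of 0.386. Ly6d and Ly6k stood at 0.15 and 0.18, uncalled. Ly6g, the neutrophil antigen gene of this family, had at most 3 counts in any library.

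Ms4a6c (chromosome 19, 11469353 to 11487182) encodes a membrane protein of the MS4A family. It was at 88.7, 84.7 and 84.9 CPM in NL and at 104.3, 97.6 and 95.8 CPM in LIP. The groups were close but did not overlap, and the lowest LIP library was 1.08-fold above the highest NL library. On the log2 scale the difference was 0.20 ± 0.04. With the length offset it was 0.25, and it lay between 0.17 and 0.33 over the alternative fits. Its counts were not all whole. None of the 552 windows of 100 bases in its coding sequence occurs in a transcript of another gene, but its untranslated parts were not searched. Its relative Ms4a6b, 85.4% identical over the aligned coding bases, stood at 0.05 (adjusted p = 0.53), and Ms4a6d, 79.0% identical, at 0.32 (adjusted p = 0.201) from 2.03 CPM. Ms4a6c held 72.0% to 74.3% of its joint counts with Ms4a6b in NL and 74.4% to 75.9% in LIP, and their sum was 1.12-fold higher in LIP.

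Among the other MS4A genes 4 of 8 rose and 1 fell, with a median of 0.24. Ms4a3, a marker of granulocyte-monocyte progenitors, rose by 0.18 ± 0.04. Ms4a4b rose by 0.55, Ms4a4c by 0.30 and Ms4a4a by 1.33 at a level under 1 CPM. The call of Ms4a4c was lost with DESeq2 (adjusted p = 0.102) and without LIP-3 (0.0853), and that of Ms4a4a without LIP-2 (0.0664) or NL-1 (0.115). The gene that fell was Ms4a2, which encodes the beta chain of the IgE receptor of mast cells and basophils, by 0.25, a call lost with DESeq2 (adjusted p = 0.0602) and on the log2 TPM scale. Ms4a1, the B cell gene for CD20, stood at 0.11, uncalled.

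Ly86 (chromosome 13, 37345345 to 37419036) encodes MD-1, the secreted partner of the receptor CD180. Its values were 35.8, 32.9 and 34.6 CPM in NL and 39.9, 36.3 and 32.8 CPM in LIP. LIP-3 lay below all 3 NL libraries, and LIP-1 was the highest of all 6, so the groups overlapped. Ly86 had a log2 fold change of 0.08 ± 0.06, from 0.01 without LIP-1 to 0.15 without LIP-3. It became 0.19 with the offset for transcript length and 0.20 on the log2 TPM scale. Its coefficient of variation in LIP, 9.86%, was the highest of the 9 genes in either group. Counts were lower than for most of the 9, from 579 to 722, and whole in every library. Of 9 tested partner and LPS receptor genes 2 rose and none fell, with a median of 0.16. These were Lbp, at 0.22, and Cd180 itself, at 0.16, whose call was lost with DESeq2 (adjusted p = 0.157) and without LIP-1 (0.167), NL-1 (0.182) or NL-2 (0.0562). Myd88, Tlr4 and Tlr2 stood at -0.07, -0.09 and -0.01, uncalled.

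Cd68 and Lyz2 are genes of the phagocyte's lysosomes and granules. Cd68 (chromosome 11, 69664213 to 69666170), which encodes a heavily glycosylated lysosomal protein of the LAMP family, was the least counted of the 9. It stood at 22.3, 22.6 and 24.0 CPM in NL and at 27.7, 26.8 and 28.0 CPM in LIP. The groups were apart by more than their own ranges, and LIP exceeded NL by 0.26 ± 0.06 on the log2 scale. Over the alternative fits Cd68 lay between 0.24 and 0.39, with 392 to 536 counts in a library. Lyz2 (chromosome 10, 117277541 to 117282272) encodes lysozyme M, an enzyme that cleaves bacterial cell walls. Its NL libraries held 384.3, 376.7 and 395.0 CPM and its LIP libraries 461.5, 446.8 and 455.0 CPM. No overlap was seen, and the log2 fold change was 0.24 ± 0.03. Lyz2 was the most counted of the 9, with 6638.48 to 8706.59 counts, and its estimate lay between 0.22 and 0.37 over the alternative fits, with 0.34 under the length offset.

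Lyz2 shares 95.0% of its coding bases with Lyz1, and 19 of 345 windows of 100 bases (5.51%) occur in both. Between 93.1% and 93.9% of their joint counts were assigned to Lyz2. Summed over both copies the level was 1.18-fold higher in LIP, from 411.5 ± 9.43 to 485.3 ± 8.32 CPM, as for Lyz2 alone. Lyz1 rose by 0.24 ± 0.06. In the list of other lysosome, lysozyme and phagocyte genes 6 of 15 tested genes rose and 1 fell, with a median of 0.11. The granulin precursor gene Grn rose by 0.25, the protease genes Ctsb and Ctss by 0.16 and 0.15, and Hexa, a lysosomal hexosaminidase gene, by 0.12. Lamp2 was the gene that fell, by 0.11, although it stood at 0.03 on the log2 TPM scale (adjusted p = 0.534) and lost its call with total counts (0.125) and without LIP-3 (0.0529).

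Zeb2 (chromosome 2, 44983512 to 45117442) encodes a zinc finger repressor that commits myeloid progenitors toward monocytes and dendritic cells and also acts in stem cells. Its NL libraries held 103.2, 93.8 and 93.9 CPM and its LIP libraries 109.2, 113.6 and 105.7 CPM. NL-1 stood above the other 2 NL libraries and came within 1.02-fold of LIP-3. Its log2 fold change was 0.17 ± 0.04, the smallest of the 8 genes without overlap, and between 0.13 and 0.25 over the alternative fits. Its counts were whole and ran from 1650 to 2172. In TPM the groups were also apart, with at most 26.9 in NL and at least 29.3 in LIP. Among 15 other transcription factors of this circuit and of myeloid fate 5 rose and none fell, with a median of 0.09. Klf4 and Irf8, both needed for monocyte development, rose by 0.35 and 0.28, Spi1 (PU.1) by 0.16 and Gfi1, a factor of the neutrophil branch, by 0.18. Cebpe, a factor of late granulocytes, rose by 0.28, and its call was lost with DESeq2 (adjusted p = 0.0515) and without LIP-3 (0.119).

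Levels between genes were compared in the authors' TPM, which are scaled by transcript length. Ly6c2 and Lyz2 were by far the most abundant, at 715.6 ± 19.7 and 649.7 ± 18.3 TPM in NL (SD, n = 3). By mean TPM over the libraries of both groups they had ranks 141 and 150 of the table. Next in NL came Ms4a6c (91.5 ± 3.01) and F13a1 (88.8 ± 1.47), whose NL libraries overlapped, and then Ly86 (61.8 ± 3.22) and Cd68 (32.4 ± 1.26). Ccr2 (26.6 ± 0.84) and Zeb2 (25.4 ± 1.34) also overlapped in NL, and Fn1 was lowest, at 13.1 ± 0.32 TPM. In LIP the order was the same except that F13a1, at 135.4 ± 6.12 TPM, lay above Ms4a6c, at 114.7 ± 5.61, in every library. The Fn1 level in LIP (25.9 ± 1.12 TPM) came close to that of Zeb2 in NL. The 9 genes together took between 1661 and 1741 TPM in NL and between 2189 and 2262 TPM in LIP. On the TPM scale the differences are larger (1.97-fold for Fn1, 1.52-fold for F13a1, 1.16-fold for Ly86), and there the median of all tested genes was itself shifted up by 0.11 on the log2(TPM + 1) scale.

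**Figure D3:**
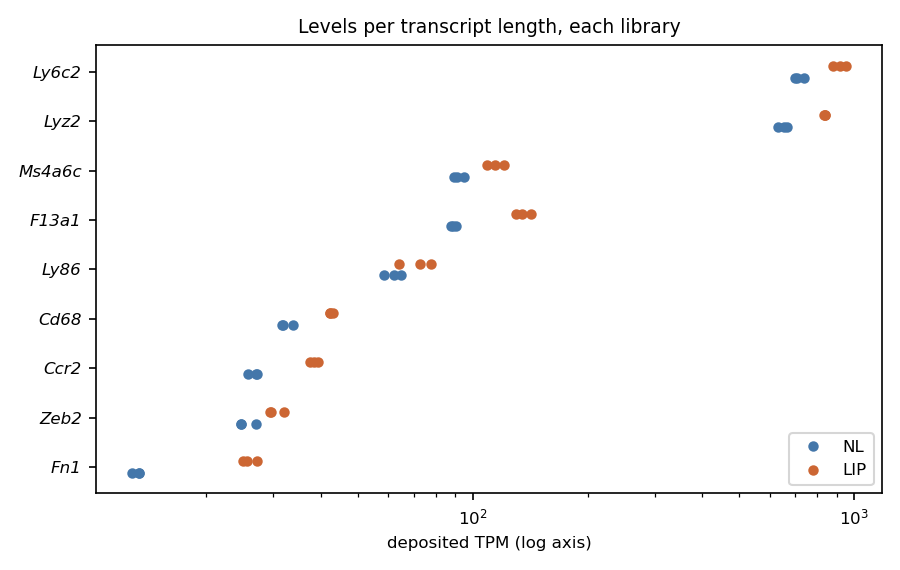
Deposited TPM of each gene (log axis) in each library, NL in blue and LIP in orange. Ly6c2 and Lyz2 lie at 629.5 TPM or more in all libraries, Fn1 at 12.8 to 27.2 TPM, and the F13a1 points cross those of Ms4a6c between the groups.

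Within groups the 9 genes did not follow a single library order in LIP. NL-2 was the lowest NL library for 8 of the 9, all but Cd68, with a mean log2 value of -0.034 relative to each gene's NL mean, and NL-1 or NL-3 was highest. In LIP, LIP-1 was highest for 5 genes, LIP-2 for 3 and LIP-3 for 1. LIP-3 was lowest for 5, among them Ly86 and Ms4a6c, LIP-2 for 3 and LIP-1 for 1. The mean over the 9 genes was 0.359 in LIP-1, 0.319 in LIP-2 and 0.290 in LIP-3.

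Promoters are shown for the genes whose first listed RefSeq window, from 250 bases before to 50 after the start site (GRCm38.p6), held at least 2 matches to the motifs searched. A window was listed for 8 of the 9 genes. Both strands were searched for GAGGAA, the core bound by PU.1, for TTGCNNAA, bound by C/EBP factors, and for the IRF element, which can overlap GAGGAA. Each window reads 5′ to 3′ on the strand of its gene, with matches in capitals.
F13a1, chr13:37050195-37050494, minus strand: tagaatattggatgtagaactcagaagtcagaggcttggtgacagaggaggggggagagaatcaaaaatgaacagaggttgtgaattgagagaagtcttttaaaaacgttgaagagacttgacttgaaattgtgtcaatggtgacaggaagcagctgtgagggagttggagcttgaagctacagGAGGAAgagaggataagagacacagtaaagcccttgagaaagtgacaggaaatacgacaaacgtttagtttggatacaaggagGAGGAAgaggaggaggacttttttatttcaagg
Ly6c2, chr15:75111922-75112221, minus strand: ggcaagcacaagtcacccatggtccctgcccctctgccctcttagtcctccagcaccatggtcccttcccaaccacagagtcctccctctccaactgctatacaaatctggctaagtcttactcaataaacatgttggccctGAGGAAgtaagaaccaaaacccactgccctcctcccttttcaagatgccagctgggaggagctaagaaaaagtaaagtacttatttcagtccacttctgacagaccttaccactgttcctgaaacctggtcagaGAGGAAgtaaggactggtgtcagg
Cd68, chr11:69666121-69666420, minus strand: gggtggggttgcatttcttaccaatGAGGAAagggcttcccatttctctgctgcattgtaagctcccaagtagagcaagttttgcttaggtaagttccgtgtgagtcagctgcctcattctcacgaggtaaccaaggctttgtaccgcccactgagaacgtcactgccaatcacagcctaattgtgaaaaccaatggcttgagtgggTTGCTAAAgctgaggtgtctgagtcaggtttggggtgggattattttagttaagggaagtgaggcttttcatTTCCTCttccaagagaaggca
Zeb2, chr2:45117393-45117692, minus strand: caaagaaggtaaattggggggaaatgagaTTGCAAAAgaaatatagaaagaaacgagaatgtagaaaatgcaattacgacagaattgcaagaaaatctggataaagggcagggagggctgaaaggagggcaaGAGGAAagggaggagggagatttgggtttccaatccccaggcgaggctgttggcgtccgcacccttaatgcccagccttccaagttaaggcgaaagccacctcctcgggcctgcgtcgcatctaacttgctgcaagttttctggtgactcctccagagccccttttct

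In F13a1 GAGGAA begins at -66 and at 18 from the start site, and in Ly6c2 at -108 and at 27. Cd68 has it at -225 and, on the other strand, at 30, with TTGCNNAA at -43. Zeb2 has TTGCNNAA at -221 and GAGGAA at -118. In all, GAGGAA was in 4 of the 8 first windows, against 28.3% of the 32851 windows of the table, and TTGCNNAA in 2, against 10.8%. The IRF element was in none of the 8, against 3.44%. The first windows of Ccr2, Ms4a6c, Ly86 and Lyz2 held none of the 3 motifs, and no window was listed for Fn1. These matches describe letters in the windows only.

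The other monocyte and monocyte progenitor genes form a list of 26 that leaves out the 9. All 26 were tested, 19 rose and none fell, and the median log2 fold change was 0.28 against -0.00 over all tested genes. Chil3, a chitinase-like gene of myeloid progenitors and monocytes, rose by 0.65 ± 0.04, from 55.2 to 86.9 CPM on average, with an adjusted p of 3.35e-19 in edgeR. Cybb, the catalytic subunit gene of the phagocyte NADPH oxidase, rose by 0.57, Csf1r, the receptor gene of the monocyte growth factor, by 0.43, and Mpeg1, which encodes the pore-forming perforin-2, by 0.28. The adaptor genes Tyrobp and Fcer1g and the chemokine gene Ccl9 were abundant but not called, at 0.01, 0.08 and 0.05. Cd14 and Fcgr1, genes of mature monocytes and macrophages, stood at 1.36 and 1.08 CPM in NL and were not called. The largest estimate was Vcan, a matrix proteoglycan gene of monocytes, at 0.77 ± 0.17 from 2.39 CPM. The summed level of the list was between 1784 and 1855 TPM in NL and between 2239 and 2271 TPM in LIP, on the TPM scale whose median was itself shifted upward.

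**Figure D4:**
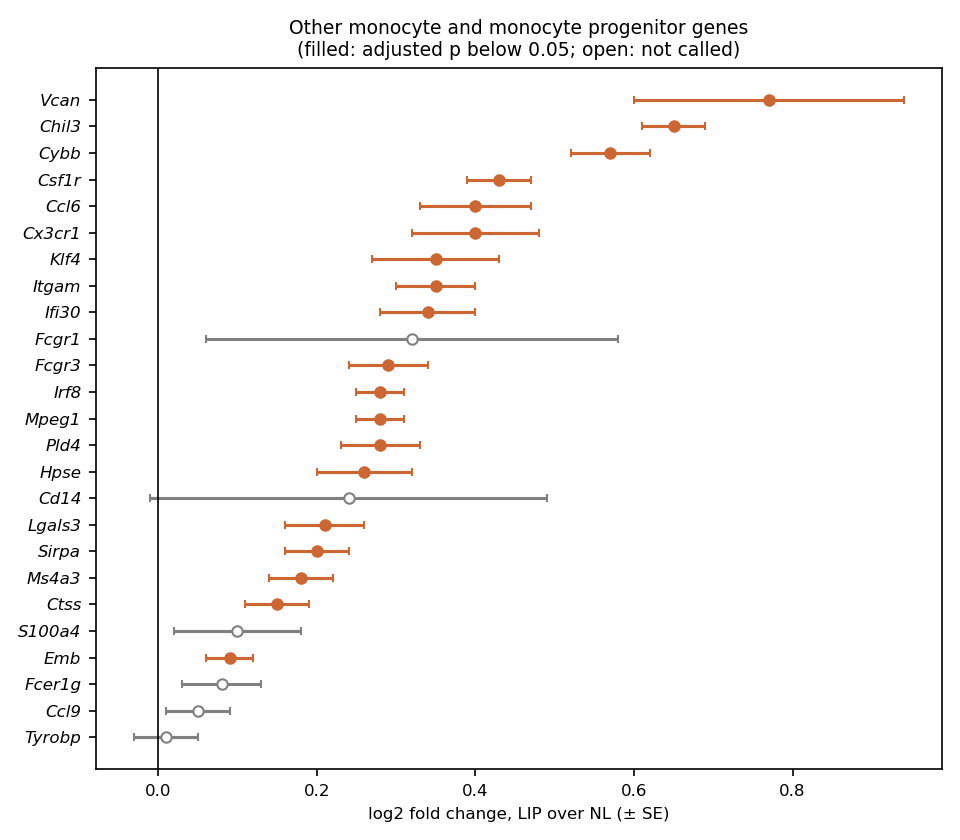
Log2 fold change ± SE, LIP over NL (x axis), of 25 of the 26 other monocyte and monocyte progenitor genes; filled circles have an adjusted p below 0.05 and open circles were not called. All estimates shown lie at or above 0.01.

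The sorted fraction could also hold other cells, whose marker lists are given beside the 9 genes. Their part in the result was not tested. Summed levels of all lists are in TPM, where the median of all tested genes was itself shifted up by 0.11 on the log2(TPM + 1) scale. A rise in summed TPM of about that size or less is therefore no more than that of the median gene. Tissue macrophage markers had 2 of 14 tested genes higher (Vcam1 and Adgre1) and 1 lower (C1qb), with a median of -0.06 and a summed level of 241 to 253 TPM in NL and 253 to 261 TPM in LIP, and none lower with total counts or the length offset. Adgre1 lost its call with DESeq2 (adjusted p = 0.139) and without LIP-1, LIP-3 or NL-2 (0.0812, 0.0848 and 0.0836), and C1qb lost it in 11 of 17 alternatives (0.0549 to 0.263), among them without any 1 library except LIP-1. Nonclassical monocyte genes had 4 of 10 higher (Cx3cr1, Spn, Itgal and Pou2f2) and none lower, with a median of 0.15 and 339 to 352 TPM in NL and 398 to 429 TPM in LIP, where Pou2f2 lost its call with DESeq2 (0.114) and without LIP-2 (0.165) or NL-3 (0.202). Neutrophil markers had 12 of 14 higher and none lower, with a median of 0.53 and 6467 to 6558 TPM in NL and 8868 to 9238 TPM in LIP. The granule genes Ngp, Ltf, Camp, Elane and Mpo were among them, at 0.98, 0.80, 0.74, 0.39 and 0.32. Dendritic cell markers had 3 of 13 higher (Cd74, Irf4 and Siglech) and none lower, with a median of 0.05 and 769 to 788 TPM in NL and 919 to 948 TPM in LIP, and 6 higher with the length offset.

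F13a1 is also a megakaryocyte and platelet gene, and Fn1 is also made by stromal cells. Megakaryocyte and platelet markers had 3 of 9 tested genes higher (Ppbp, Gp1ba and Vwf) and none lower, with a median of 0.19 and a summed level of 137 to 145 TPM in NL and 152 to 153 TPM in LIP, and 5 higher with total counts alone. Gp1ba lost its call with DESeq2 (adjusted p = 0.112) and without LIP-3 (0.114) or NL-3 (0.096), and Vwf with DESeq2 (0.0908), with the length offset (0.0566) and without LIP-2 (0.101) or NL-3 (0.0568), while Pf4, the platelet factor 4 gene, stood at -0.20 (0.0527). Among stromal and endothelial markers 6 of 12 had too few counts to be tested, among them Col1a1 with at most 12 counts in a library. In the others Pdgfrb rose by 0.25 and Postn and Emcn fell by 0.54 and 0.21, with a list median of 0.14 and a summed level of 49.6 to 51.4 TPM in NL and 54.8 to 57.5 TPM in LIP. Emcn lost its call in 9 of 17 alternatives, without LIP-2, LIP-3, NL-2 or NL-3 (adjusted p = 0.0637, 0.0875, 0.0933 and 0.0538), with DESeq2 (0.122), total counts (0.0641) and the length offset (0.0932), and on both log2 TPM scales (0.241 and 0.243).

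Markers of the sorted LSK cells had 2 of 10 higher, Kit by 0.18 among them, and 1 lower (Cd48 by 0.15), with a median of 0.06 and 1543 to 1566 TPM in NL and 1683 to 1734 TPM in LIP, and 4 higher with total counts. Cd48 lost its call with the length offset (adjusted p = 0.215) and on both log2 TPM scales (0.657 and 0.655). B cell markers had 4 of 7 higher (Vpreb3, Pax5, Ebf1 and Cd79a), with a median of 0.41, at 74.9 to 77.7 TPM in NL and 101 to 107 TPM in LIP, and T and NK cell markers 3 of 7 higher (Nkg7, Cd3e and Cd4), with a median of 0.30, at 293 to 317 TPM and 359 to 387 TPM. Cd3e lost its call without NL-2 (0.0695) and Cd4 with DESeq2 (0.174) and without LIP-2, LIP-3, NL-1 or NL-2 (0.0968, 0.0712, 0.0638 and 0.0997). Erythroid markers had 2 of 7 lower, Klf1 among them, and none higher, with a median of 0.05, at 419 to 448 TPM in NL and 454 to 518 TPM in LIP, and Klf1 lost its call in 7 of 17 alternatives, without LIP-2 (0.154) or NL-2 (0.129), with DESeq2 (0.0974), the length offset (0.0887) and total counts (0.073), and on both log2 TPM scales (0.568 and 0.57). Under the length offset 3 erythroid markers were called higher and 1 lower. The summed TPM of these lists, the erythroid one included, carry the upward shift of the TPM scale. Of the 224 listed symbols 216 had a row in the table, and none of these was at 0 in all 6 libraries.

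**Figure D5:**
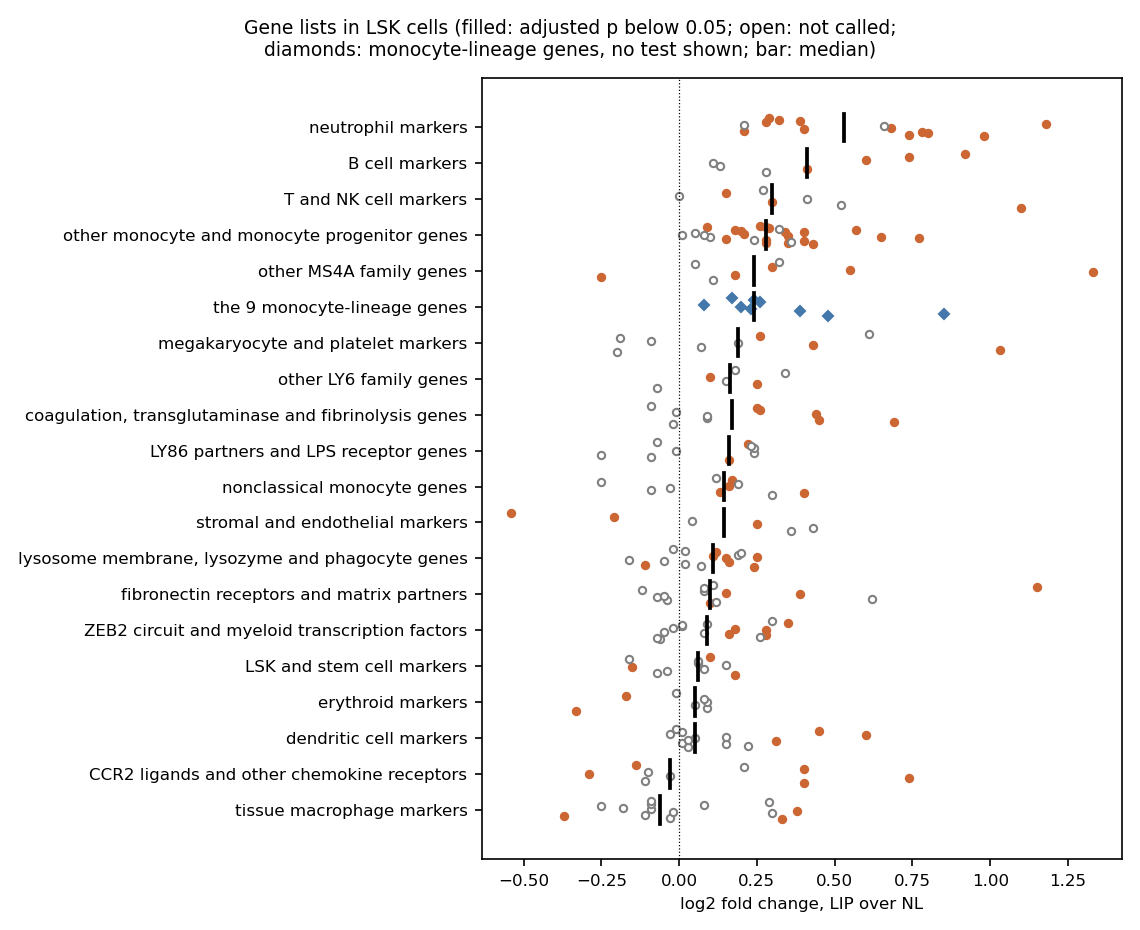
Log2 fold change, LIP over NL (x axis), of every tested gene in the 19 lists and the 9 monocyte-lineage genes (blue diamonds, shown without a test); filled circles have an adjusted p below 0.05, open circles were not called, and bars are medians. The medians run from -0.06 in tissue macrophage markers to 0.53 in neutrophil markers.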

How the data were processed

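Per the labels' protocols, RNA of LSK cells pooled from 3 mice per library was polyA-selected and sequenced as 100 bp paired-end reads. Per the submitters' processing notes, STAR, HTSeq and the build GRCm38 were used, with no role given for either tool. Which tool produced the deposited values was not given in the sources used here. The authors deposited estimated counts (expected counts, whole for 86.3% to 86.8% of values in a library), FPKM and TPM per gene, per the file headers. Estimated counts were rounded, filtered with filterByExpr, scaled by TMM and compared, LIP against NL, with edgeR 4.0.16 (R 4.3.3), using the robust quasi-likelihood test with Benjamini-Hochberg adjustment over 12564 genes and a threshold of 0.05. Log2 fold changes are LIP over NL, and CPM are TMM-scaled.

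The 9 genes and the 19 lists (224 symbols, some in more than 1 list) were chosen with earlier results of these data known. Named are the 9 genes, called list genes (all of them up to 5 per list, else the 5 with the smallest p), and the 3 most abundant uncalled genes of the monocyte, LY6, MS4A and LY86 lists. Also named are near-identical relatives and the 5 genes nearest in profile. Not under that rule, and picked with their values in view, are Vcan, Lamp2, Cd14, Fcgr1, Pf4 and the untested genes. Some listed genes are counted in their lists but not reported here by name. Alternatives were DESeq2 1.42.0, limma-voom (limma 3.58.1), DESeq2 size factors, total counts, an offset for transcript length, 2 filters, non-robust estimation, a replicate block, log2(TPM + 1) and log2(TPM + 0.1) with limma, and leaving out each library. Effective length came from the authors' deposited FPKM and counts, and the lowess span was 0.3. Coding sequences were read from GENCODE M21 on GRCm38. Gene positions and promoters are from RefSeq on GRCm38.p6.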

Additional observations from a re-analysis of the deposited data

How the results depend on the processing

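Of 153 values of the 9 genes over 17 alternatives, 150 kept their direction and their side of the threshold. The other 3 were of Ly86, which passed it with the length offset (0.19) and with log2(TPM + 1) and log2(TPM + 0.1) (0.20 in both). From 1776 higher and 1984 lower among all genes, calls went to 1091 and 1285 with DESeq2, which changes the test and the genes tested (16383) together, and to 1820 and 1937 with its size factors alone in edgeR. They went to 2756 and 1301 with total counts alone, to 4657 and 542 with log2(TPM + 1) and to 4642 and 547 with log2(TPM + 0.1), where scale and model change together. Calls were 47.2% higher in the reported fit, 67.9% with total counts and 89.6% and 89.5% on the TPM scales, where the median log2 fold change was 0.11 and 0.124; the cause was not tested. Of the other monocyte genes between 18 and 23 of 26 rose, and none fell, in every alternative. Lamp2 went from -0.11 to 0.03 on both TPM scales (adjusted p = 0.534), the cause was not tested, and lost its call with total counts and without LIP-3. With genes in 5 equal groups by transcript length, the median log2 fold change was -0.10 in the shortest and 0.04 in the longest. Leaving out 1 library gave 1437 to 1590 genes higher and 1550 to 1807 lower.

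With the replicate number as a block, 1750 genes were higher and 1979 lower, and 8 of the 9 genes were called. Same-numbered libraries deviated from their group means with correlations of 0.0295, -0.0163 and -0.113. Differently numbered libraries lay between -0.112 and 0.132. Such values from 3 libraries per group cannot show or exclude a pairing, and the sample titles give only a number.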

Other observations

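The 5 genes outside the 9 whose values over the 6 libraries ran closest to the mean profile of Fn1 and F13a1 were Nhsl2, Chil3, Gda, Aatk and C3, among 9919 candidates (average log2 CPM 3 or more). Likeness was the root mean square difference of log2 CPM relative to each gene's NL mean, from 0.041 for Nhsl2 to 0.066 for C3. Chil3 is a gene of monocyte progenitors, Gda encodes guanine deaminase and C3 encodes complement component 3. Their log2 fold changes were 0.69, 0.65, 0.64, 0.72 and 0.59 in the order named. With 6 libraries in 2 groups, this measure is close to asking for a similar difference between the groups.

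F13a1 and Ly86 lie on chromosome 13 with 295100 bases between them. F13a1 differed 1.40-fold between the groups and Ly86 1.06-fold, and Ly86 overlapped between the groups where F13a1 did not.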
